A study of Mus musculus with 20 samples.

Results

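The genes described are 42 genes of the cell cycle and DNA replication, taken by gene name from the 22660 genes of the count matrix. They were chosen for their known roles, with earlier results of these data known, and measured in all 4 groups of the study. RNA was sequenced from the plantaris muscle of male C57BL/6J mice aged 2 years, with 5 mice in each of 4 groups that share no animal. Mice had mechanical overload (MOV), in which part of the synergist muscles of the plantaris is surgically removed, or a sham operation. Muscle was collected 14 days later. Mice of each surgery received vehicle or the senolytic pair D + Q, dasatinib (5 mg/kg, a tyrosine kinase inhibitor) with quercetin (50 mg/kg, a plant flavonoid), by gavage on days 7 and 10, although the deposited design text gives day 14 for the second dose of the sham mice. The groups are called vehicle sham and vehicle MOV without the drugs, and D + Q sham and D + Q MOV with them. The total count per mouse was 17887532 to 26234518 in vehicle sham, 18535681 to 23468048 in D + Q sham, 18260903 to 22092838 in vehicle MOV and 18879818 to 23076398 in D + Q MOV. Levels are given as CPM, the count of a gene relative to the library total after TMM scaling (trimmed mean of M-values) over the 20 mice, and 3 counts correspond to 0.115 to 0.191 CPM. A group with no more than 3 counts in any of its mice was taken to be at the floor, and a difference from it is given as a ratio of summed counts with a 95% counting interval, which covers counting error only.

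A dividing cell commits to S phase through cyclin-dependent kinases and the E2F transcription factors, copies its DNA with the MCM helicase and its partners, and then separates its chromosomes with the kinases, motors and kinetochore proteins of mitosis. Many of these genes are transcribed in one phase of the cycle, the replication genes largely under E2F and the mitotic genes largely under FoxM1 and the MuvB complex. Myofibre nuclei do not divide, whereas satellite cells, fibroblasts, endothelial cells and immune cells in overloaded muscle can.

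Single libraries stood apart from their groups. Vehicle MOV replicate 2 had the lowest CPM of the 5 vehicle MOV mice for 29 of the 42 genes and the highest for 1. In the same mouse the summed level of 12 macrophage and monocyte markers was 320 CPM, against 592 to 964 CPM in the other 4 vehicle MOV mice, and that of 12 fibroblast markers was 7461 CPM, against 11104 to 14682 CPM. Its summed level of 12 myofibre markers was the highest of the group, 147331 CPM against 106976 to 136176 CPM. The part of these markers in its low values was not tested. Vehicle MOV replicate 4 was the highest of its group for 18 of the 42 genes, and D + Q MOV replicate 3 for 17. Among the sham mice, D + Q sham replicate 2 was the highest of its group for 20 of the 42 genes. Exons of some of the genes overlap a gene on the opposite strand: by 67.3% of exon bases for Gins2 (with Gse1), 54.8% for Kif20a (Cdc23), 43.3% for Rrm2 (Gm59512), 25.2% for Aurka (Fam210b), 20.8% for Pcna (AV099323), 17.5% for Ccna2 (Exosc9), 15.2% for Ccne2 (Ints8), 11.8% for Prc1 (Rccd1) and 10.6% for Cdc45 (Ufd1). Whether the counting used strand is not given in the sources used here, so reads of such pairs cannot be told apart.

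**Figure D1:**
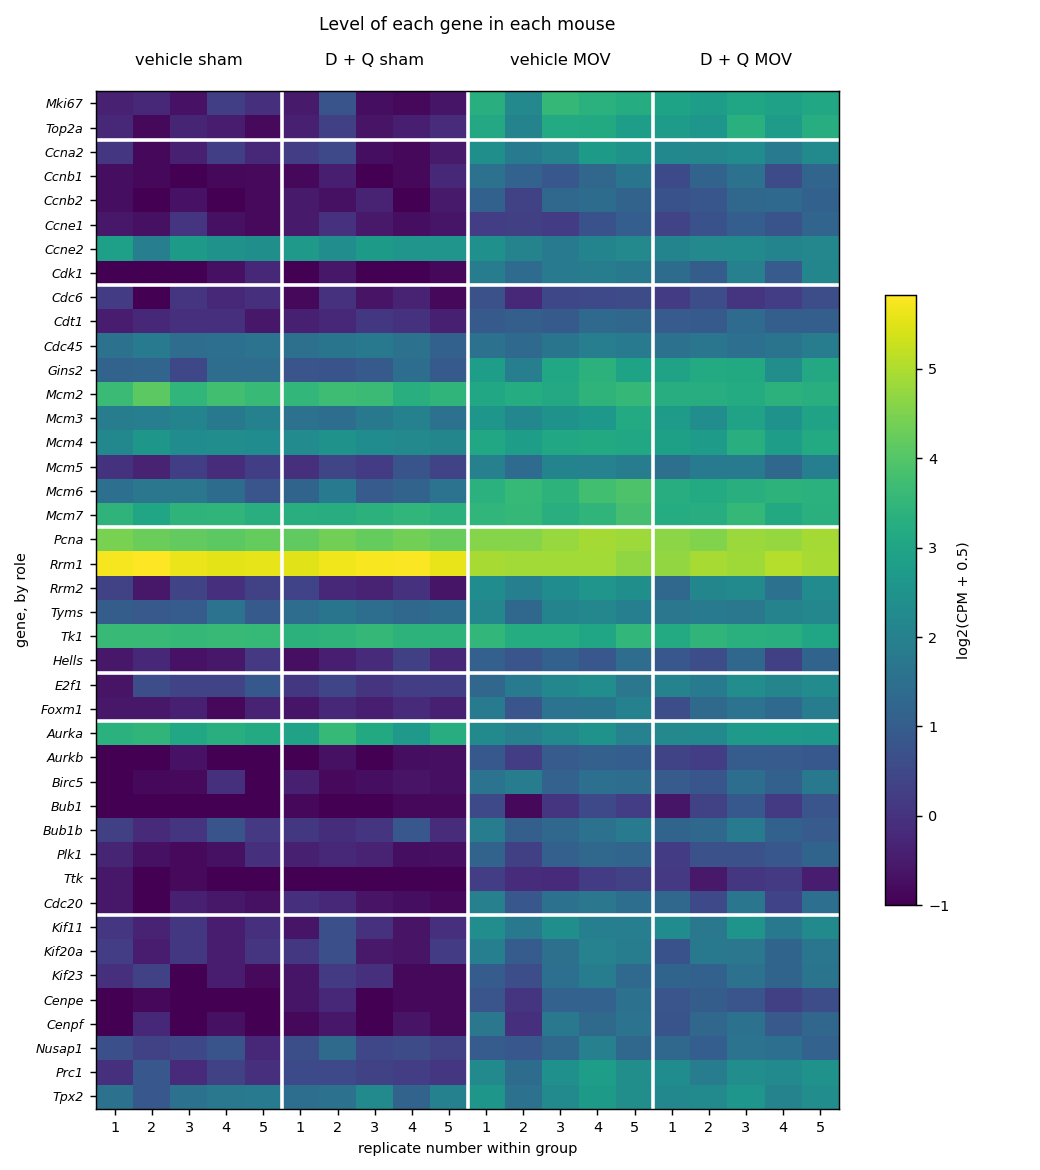
Level of each of the 42 genes (vertical, by role, separated by white lines) in each of the 20 mice (horizontal, by group and replicate number), as log2 of CPM plus 0.5. Most genes were darker in both sham groups than in both MOV groups, vehicle MOV replicate 2 was darker than its group for most genes, and Rrm1 and Aurka were among those brighter in sham.

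Most cell cycle genes were higher in overloaded than in sham muscle, whichever treatment the mice received. With vehicle, 39 of the 42 genes had enough counts to be tested (10 or more in 5 or more of the 10 mice), and 31 rose, 4 fell and 4 did not pass an adjusted p of 0.05, while over all 14601 genes tested 30.7% rose and 29.8% fell. Only 14 of those 39 genes reached 10 counts in all 5 mice of both groups. The other 25 passed the minimum through a single group or through some mice of both, so counts over the 39 genes are a description. The counts by role given below stand beside the same shares of all genes and are a description too. Among the 14, 7 rose and 4 fell, beside 27.4% and 33.8% of the 12474 genes that met the same minimum. Over all 42 genes, the vehicle groups did not overlap for 32 genes that were higher and 3 that were lower in MOV, of which 29 and 3 were tested, and 7 overlapped; of all genes tested, 23.8% were higher and 22.6% lower without overlap. The median log2 ratio of pooled CPM over the 42 genes, with genes at 0 counts set to 3 counts over the group, was 2.59, and the median fitted log2 fold change of all genes tested was -0.02. The median fitted value was 2.41 over the 39 genes tested, and 0.41 over the 14 in a fit of genes at the minimum in both groups.

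With D + Q, 40 genes were tested, of which 33 rose, 3 fell and 4 did not pass, while 34.4% of the 14913 genes tested rose and 30.9% fell. Here 17 genes met the minimum in every mouse of both groups, and 10 of them rose and 3 fell, beside 31.4% and 35.2% of 12684 genes. The D + Q groups did not overlap for 32 genes that were higher and 2 that were lower, of which 30 and 2 were tested, and overlapped for 8; the shares of all genes were 26.5% and 26.5%. The median log2 ratio of pooled CPM over the 42 genes was 2.35, and the median of all genes tested was 0.02. The median fitted value was 2.26 over the 40 genes tested, and 0.63 over the 17 in a fit of genes at the minimum in both groups. Of the 39 genes tested with both treatments, which used different mice, 31 rose in both and Rrm1 and Aurka fell in both. In bulk tissue, a change in the number of cells of a type and a change in RNA per cell cannot be told apart.

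Scaling mattered for the genes that fell. With total counts alone in place of TMM, the median of all genes moved to 0.36 with vehicle and 0.39 with D + Q, Tk1 turned from lower to higher with vehicle, Mcm2, Mcm7 and Tk1 did so with D + Q, and the falls of Mcm2 and Tk1 (vehicle) and of Ccne2 and Aurka (D + Q) were no longer called. The share of calls that were higher was then 84.1% with vehicle, against 50.8% under TMM, and 83.5% with D + Q, against 52.6%. Without vehicle MOV replicate 2, and with the count minimum asked of 4 mice, a choice made after its values were seen, 41 genes were tested with vehicle, of which 34 rose and 3 fell.

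**Figure D2:**
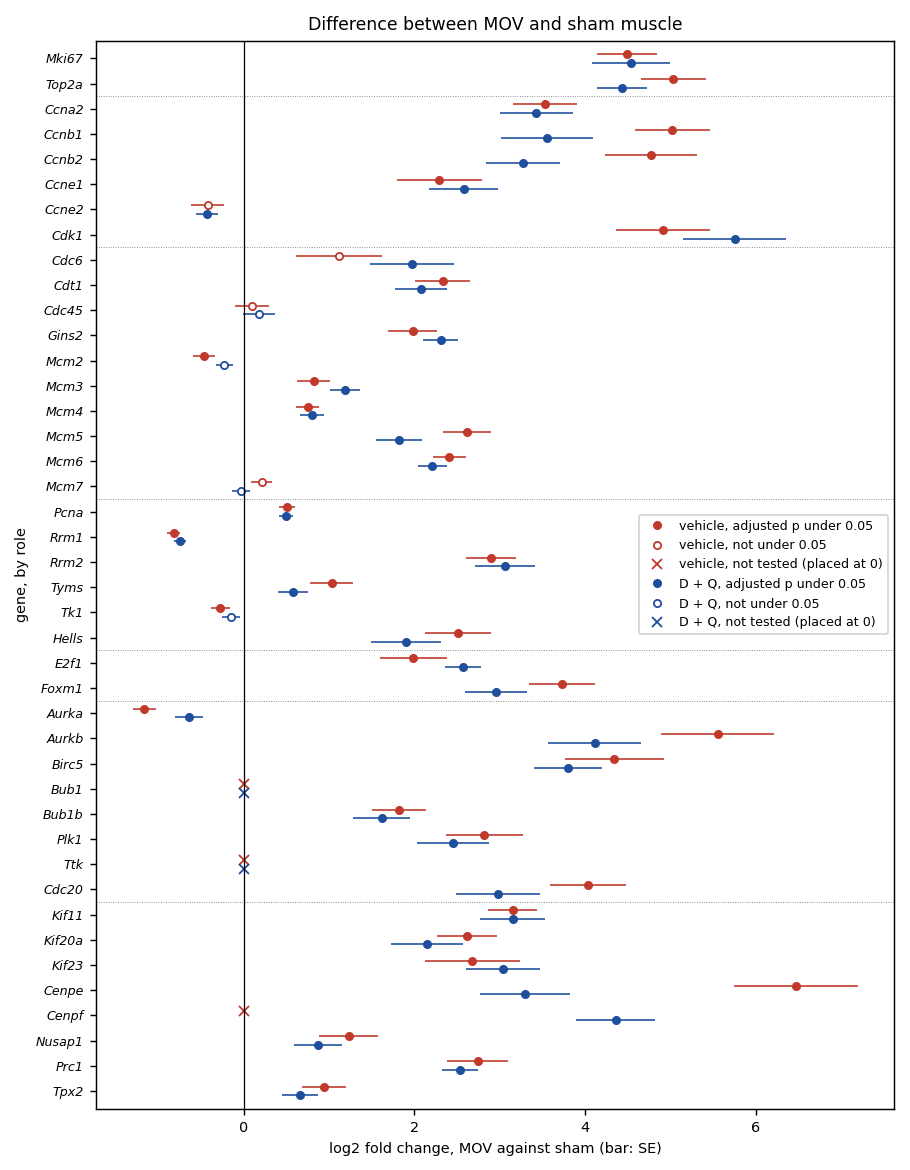
Log2 fold change (horizontal, bar = SE, 5 mice a group) between MOV and sham muscle for the 42 genes (vertical, by role), with vehicle in red and D + Q in blue, under TMM scaling. Filled points passed an adjusted p of 0.05 in edgeR, open points did not, and crosses at 0 mark untested genes; fitted values of genes at the floor depend on the fit's prior count. Most points lie right of 0 and those of Rrm1 and Aurka lie left of it with both treatments, Aurka with D + Q passing under TMM but not under total counts.

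Promoter sequences show what genes of different roles share beside their levels. RefSeq promoters (table build GRCm38.p6, 250 bases before to 50 after the start, each matched by sequence to GRCm39) were found for 34 of the 42 genes, with 36 windows because Mcm7 and Prc1 have 2 each, and a gene was counted when any of its windows held the motif. 3 motifs were searched on both strands: the cell cycle homology region or CHR (TTTGAA or TTCGAA), which MuvB complexes bind; the E2F motif (TTGGCGC or TTCCCGC or TTCGCGC or TTGCCGC); and the CCAAT box (CCAAT), which NF-Y binds. E2F words can overlap one another, and an E2F word can share 4 bases with a CCAAT box read on the other strand. A CHR was present in 17 of the 34 genes (50%), beside 21.7% of 27025 genes in the table, an E2F motif in 12 (35.3%, beside 10.9%), and a CCAAT box in 25 (73.5%, beside 41.1%). By role, 6 of 7 mitotic kinase, checkpoint and anaphase genes and 4 of 6 spindle and kinetochore genes had a CHR, and 0 of these 13 had an E2F motif. Among licensing and helicase genes 6 of 8 had an E2F motif and 3 of 8 a CHR, that of Mcm7 in 1 of its 2 windows, and among the clamp and nucleotide supply genes 3 of 6 had an E2F motif and 0 had a CHR. A match to letters is a description and not a measured binding site.

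The 5 promoters below stand for genes with contrasting levels: Cdk1 and Cdc20, near 0 in sham and higher in MOV, Mcm6, a helicase subunit higher in MOV, and Rrm1 and Aurka, which were lower in MOV under TMM scaling. Capitals mark the letters of a CHR, E2F or CCAAT match on either strand, and coordinates are those of GRCm39. Cdk1 and Mcm6 are shown in the full window of 300 bases. Cdc20, Rrm1 and Aurka are shown in a shorter one of 150 bases, which begins 100 bases before the start. The Cdk1 sequence (chr10:69188693-69188992, minus strand) has a CHR 71 and 15 bases before the start, E2F words 178 and 130 bases before it and 3 CCAAT boxes. The Cdc20 sequence (chr4:118294491-118294640, minus strand) holds, in between 2 CCAAT boxes, a CHR that begins 18 bases before the start. Mcm6 (chr1:128287393-128287692, minus strand) has E2F words 109, 106, 46 and 43 bases before the start, in 2 overlapping pairs, another 25 bases after it, and no CHR. The Rrm1 promoter (chr7:102090802-102090951, plus strand) has an E2F word 67 bases before the start and 2 CCAAT boxes, and Aurka (chr2:172212441-172212590, minus strand) has 2 CCAAT boxes and a CHR 33 bases after the start.
Cdk1: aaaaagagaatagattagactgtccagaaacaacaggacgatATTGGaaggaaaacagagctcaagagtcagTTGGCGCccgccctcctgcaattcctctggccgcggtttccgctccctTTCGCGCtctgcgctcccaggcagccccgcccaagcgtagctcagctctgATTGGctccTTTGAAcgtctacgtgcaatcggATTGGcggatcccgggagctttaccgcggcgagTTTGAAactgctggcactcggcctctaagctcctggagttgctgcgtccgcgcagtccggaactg
Cdc20: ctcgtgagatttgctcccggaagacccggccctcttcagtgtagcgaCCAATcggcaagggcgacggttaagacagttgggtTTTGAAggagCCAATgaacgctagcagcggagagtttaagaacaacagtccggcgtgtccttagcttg
Mcm6: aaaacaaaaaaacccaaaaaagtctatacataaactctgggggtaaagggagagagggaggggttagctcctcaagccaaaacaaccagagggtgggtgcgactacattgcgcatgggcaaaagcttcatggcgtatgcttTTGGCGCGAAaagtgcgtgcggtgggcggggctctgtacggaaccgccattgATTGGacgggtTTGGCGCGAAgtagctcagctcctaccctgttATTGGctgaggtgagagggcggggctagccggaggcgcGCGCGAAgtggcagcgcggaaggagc
Rrm1: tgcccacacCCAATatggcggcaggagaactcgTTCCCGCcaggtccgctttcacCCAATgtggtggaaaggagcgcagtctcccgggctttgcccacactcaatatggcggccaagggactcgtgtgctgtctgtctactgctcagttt
Aurka: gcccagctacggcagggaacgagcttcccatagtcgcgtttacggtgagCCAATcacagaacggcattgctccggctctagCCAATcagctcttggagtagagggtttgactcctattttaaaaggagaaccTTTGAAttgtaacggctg
Aurka, which fell, and Cdc20, which rose, both hold a CHR and CCAAT boxes in these windows, and Rrm1, which fell, and Mcm6, which rose, both hold E2F words.

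Both proliferation markers rose with overload. Mki67 encodes the Ki-67 protein that coats mitotic chromosomes. It was 0.276, 0.345, 0.127, 0.695 and 0.47 CPM in vehicle sham replicates 1 to 5 and 9.35, 4.14, 11.2, 9.76 and 8.89 CPM in vehicle MOV. With D + Q it was 0.209, 1.22, 0.0975, 0.0485 and 0.152 CPM in sham and 7.3, 6.45, 7.6, 7.04 and 8.05 CPM in MOV. Every MOV mouse was above every sham mouse, the lowest MOV value was that of vehicle MOV replicate 2, and D + Q sham replicate 2 was the highest sham mouse. The log2 fold change was 4.49 ± 0.346 (SE, adjusted p = 1.24e-07) with vehicle and 4.54 ± 0.458 (SE, adjusted p = 2.41e-06) with D + Q, or 5.84 without D + Q sham replicate 2.

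Top2a encodes topoisomerase II alpha, which untangles replicated chromosomes. It was 0.367, 0.0575, 0.319, 0.232 and 0.0587 CPM in vehicle sham and 8.26, 3.62, 8.56, 8.41 and 6.6 CPM in vehicle MOV. In the D + Q mice it was 0.262, 0.732, 0.146, 0.243 and 0.406 CPM in sham and 6.17, 5.53, 9.67, 6.41 and 9.07 CPM in MOV. MOV and sham did not overlap, and vehicle MOV replicate 2 was again the lowest MOV mouse. Its log2 fold change was 5.03 ± 0.379 (SE, adjusted p = 7.31e-08) with vehicle and 4.43 ± 0.293 (SE, adjusted p = 8.88e-10) with D + Q.

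Among the cyclins and their kinase, 5 of 6 genes rose with vehicle and 5 of 6 with D + Q, and Ccne2 was the exception in both. Ccna2 encodes cyclin A2 of S phase and G2. It was 0.551, 0.0575, 0.255, 0.695 and 0.352 CPM in vehicle sham and 4.8, 2.95, 3.65, 6.09 and 5.21 CPM in vehicle MOV. It was 0.68, 0.914, 0.0975, 0.0485 and 0.203 CPM in D + Q sham and 4.08, 3.95, 4.41, 3 and 4.2 CPM in D + Q MOV. All MOV mice lay above all sham mice, with log2 fold changes of 3.53 ± 0.37 (SE, adjusted p = 1.27e-06) and 3.43 ± 0.43 (SE, adjusted p = 5.64e-06). Cdk1, the kinase of mitotic entry, had 0 counts in 3 vehicle sham and 3 D + Q sham mice and 2.12 to 3.15 CPM in vehicle MOV; with D + Q, where sham was at the floor, it summed to 295 counts in MOV and 4 in sham, a ratio of 59.4 (23 to 219), or 197 (35.1 to 7814) without D + Q sham replicate 2, which held 3 of the 4. Ccnb1 and Ccnb2 encode the B cyclins that activate it. Ccnb1 summed to 226 counts in vehicle MOV and 5 in vehicle sham, a ratio of 36 (15.2 to 112). Ccnb2 summed to 190 and 5 counts, a ratio of 30.3 (12.7 to 94.3). Against D + Q sham, which was above the floor, their log2 fold changes were 3.55 and 3.27 (SE 0.537 and 0.434), that of Ccnb1 being 4.28 without D + Q sham replicate 5.

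The E cyclins, which activate CDK2 at the entry to S phase, went apart. Ccne1 was at most 0.51 CPM in any sham mouse and 0.655 to 1.86 CPM in the MOV mice of both treatments, with log2 fold changes of 2.29 ± 0.497 (SE, adjusted p = 0.000999) and 2.58 ± 0.404 (SE, adjusted p = 2.1e-05), the former 2.92 without vehicle sham replicate 3. Ccne2 was 6.75, 3.28, 6.06, 5.15 and 4.82 CPM in vehicle sham and 4.92, 3.68, 2.95, 3.72 and 4.11 CPM in vehicle MOV. It was 5.86, 4.63, 6.09, 5.43 and 5.38 CPM in D + Q sham and 3.77, 4.14, 4.28, 3.72 and 3.98 CPM in D + Q MOV. The vehicle groups overlapped, with vehicle sham replicate 2 inside the MOV range and vehicle MOV replicate 1 above vehicle sham replicate 5, while all D + Q MOV mice lay under all D + Q sham mice. The difference was -0.42 ± 0.198 (SE, adjusted p = 0.0781) with vehicle and -0.42 ± 0.131 (SE, adjusted p = 0.00859) with D + Q, and under total counts neither was called. Without vehicle sham replicate 2, which was low, the vehicle difference was -0.55 and was called, as it was in a joint fit of the 20 mice.

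**Figure D3:**
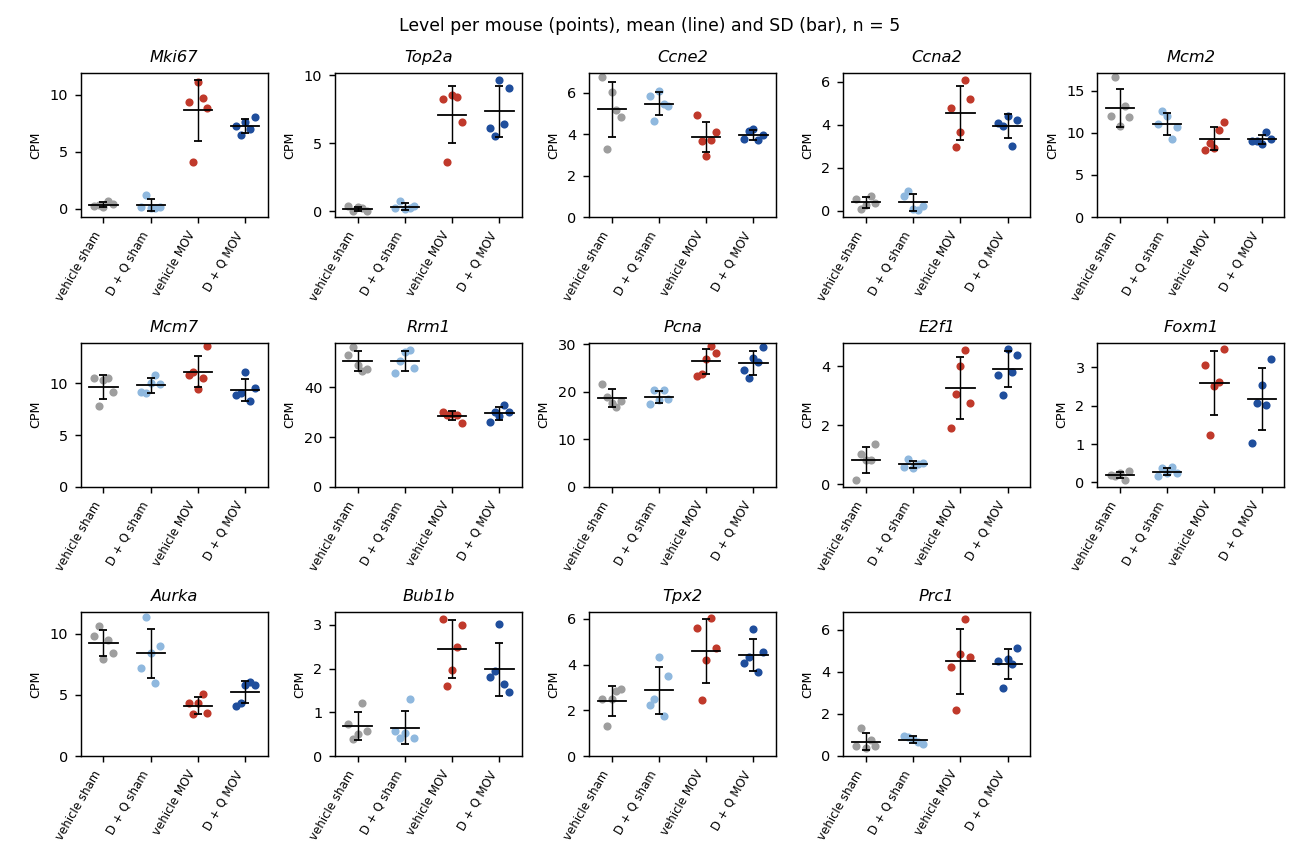
CPM (vertical) of 14 genes in the 5 mice of each group (points), with mean (line) and SD (bar). Mki67, Top2a, Ccna2, E2f1, Foxm1, Bub1b and Prc1 were higher in every MOV mouse than in every sham mouse of the same treatment, Rrm1 lower, and Mcm7 overlapped with both treatments.

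Replication licensing and helicase genes were uneven: 6 of 10 rose and 1 fell with vehicle, and 7 rose and 0 fell with D + Q. The MCM2 to MCM7 subunits form a single ring, loaded on origins by Cdc6 and Cdt1 and opened with Cdc45 and the GINS complex, and their levels can be set side by side per length of merged exons. In vehicle sham, Mcm2 was 1.63 ± 0.281 and Mcm7 1.72 ± 0.213 CPM per kilobase (mean ± SD, n = 5), whereas Mcm5 was 0.0762 ± 0.0268 and Mcm6 0.411 ± 0.115. In vehicle MOV these levels were 1.17 ± 0.176 for Mcm2, 1.98 ± 0.272 for Mcm7, 0.467 ± 0.0934 for Mcm5 and 2.18 ± 0.378 for Mcm6. Of these 4, the pair scarce in sham thus rose and the pair abundant in sham did not, except that Mcm7 was called higher under total counts. Mcm3 and Mcm4 lay between, at 0.531 ± 0.053 and 0.873 ± 0.108 CPM per kilobase in vehicle sham and 0.931 ± 0.269 and 1.46 ± 0.134 in vehicle MOV. Dividing by the longest transcript instead gave 3.13, 3.26, 0.111 and 0.505 CPM per kilobase for Mcm2, Mcm7, Mcm5 and Mcm6 in vehicle sham, with Mcm2 and Mcm7 again above the other pair.

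**Figure D4:**
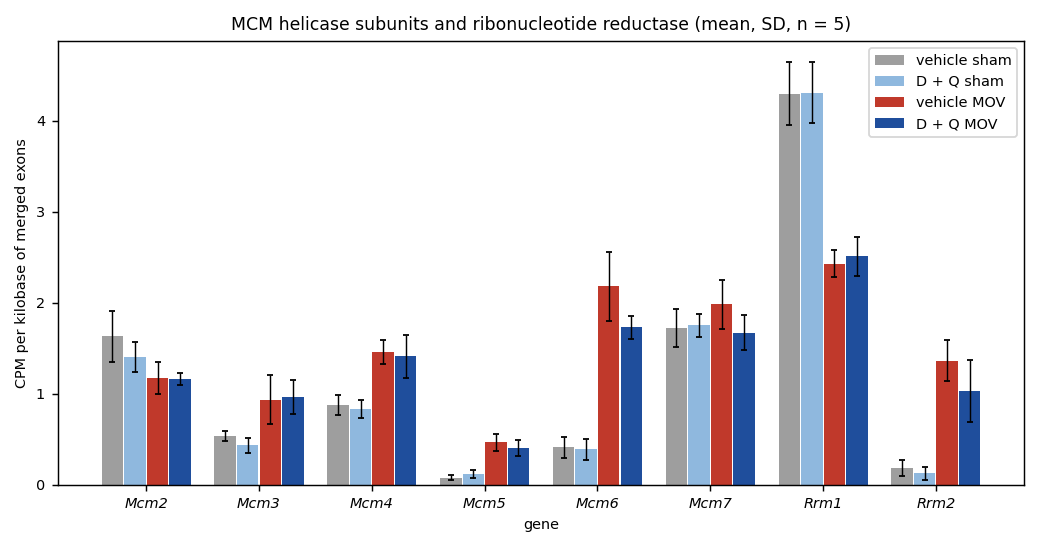
Mean CPM per kilobase of merged exons (vertical, bar = SD, n = 5) of Mcm2 to Mcm7, Rrm1 and Rrm2 in the 4 groups. Mcm6 and Rrm2 were higher in MOV than in sham, Rrm1 was lower, and Mcm2 and Mcm7 were the most abundant MCM subunits in sham.

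By mouse, Mcm2 was 12, 16.6, 10.8, 13.1 and 11.9 CPM in vehicle sham and 7.98, 8.8, 8.23, 10.3 and 11.2 CPM in vehicle MOV. It was 11, 12.6, 12, 9.22 and 10.7 CPM in D + Q sham and 8.99, 8.98, 8.72, 10 and 9.29 CPM in D + Q MOV. The groups overlapped with both treatments, vehicle MOV replicate 5 lying above vehicle sham replicate 3. Mcm2 fell with vehicle, -0.47 ± 0.132 (SE, adjusted p = 0.00675), but not under total counts, and with D + Q the difference was -0.23 ± 0.1 (SE, adjusted p = 0.055), turning to 0.14 under total counts; without D + Q sham replicate 4 it was -0.29 and was called. Mcm7 was 10.5, 7.76, 10.3, 10.5 and 9.16 CPM in vehicle sham and 10.8, 11.1, 9.5, 10.6 and 13.6 CPM in vehicle MOV. It was 9.16, 9.02, 10, 10.8 and 9.95 CPM in D + Q sham and 8.84, 9.06, 11.1, 8.34 and 9.51 CPM in D + Q MOV. Its groups overlapped and neither difference passed: 0.21 ± 0.121 (SE, adjusted p = 0.143) with vehicle and -0.03 ± 0.103 (SE, adjusted p = 0.832) with D + Q. Total counts called it higher with both, at 0.59 (adjusted p = 0.000652) and 0.34 (adjusted p = 0.0135), turning its sign with D + Q.

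Mcm6 rose by a log2 fold change of 2.41 ± 0.191 (SE, adjusted p = 9.31e-08) with vehicle and 2.21 ± 0.168 (SE, adjusted p = 3.93e-09) with D + Q, its sham values of 1.23 to 2.99 CPM lying well under the 8.52 to 14.7 CPM of MOV. Mcm5 rose by 2.62 ± 0.282 and 1.82 ± 0.266 (SE). Mcm3 rose by 0.82 and 1.19, and Mcm4 by 0.75 and 0.80. Gins2, a GINS subunit, rose by 1.98 ± 0.284 and 2.31 ± 0.206. Its overlapping neighbour Gse1 did not pass with vehicle (log2 fold change -0.31, adjusted p = 0.077) and fell with D + Q (-0.45, adjusted p = 0.000223). The loading factor Cdt1 rose by 2.33 and 2.08. Cdc6 differed by 1.12 ± 0.505 (SE, adjusted p = 0.0676) with vehicle, where vehicle MOV replicate 2 lay within the sham range at 0.362 CPM, and by 1.97 ± 0.489 (SE, adjusted p = 0.0018) with D + Q. Without that mouse the vehicle difference was 1.33 and was called, and with the minimum also asked of only 4 mice it was 1.31 (adjusted p = 0.0316). Cdc45 was 2.23 to 3.11 CPM in vehicle sham and 2.02 to 3.28 CPM in vehicle MOV, and passed with neither treatment (0.10 ± 0.194 (SE, adjusted p = 0.677) and 0.18 ± 0.188 (SE, adjusted p = 0.403)), although total counts called it with D + Q.

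The clamp and nucleotide supply genes were split, with 4 of 6 higher and 2 lower with vehicle, and 4 higher and 1 lower with D + Q. Ribonucleotide reductase makes deoxynucleotides with a large subunit, Rrm1, and a small subunit, Rrm2, the latter being the one tied to S phase. Rrm1 was 53.1, 56.4, 49.1, 46.8 and 47.6 CPM in vehicle sham and 30.1, 28.9, 29.2, 29 and 25.5 CPM in vehicle MOV. It was 45.8, 50.5, 54.2, 55 and 47.7 CPM in D + Q sham and 25.9, 29.9, 28.5, 32.9 and 30.3 CPM in D + Q MOV. Every MOV mouse lay under every sham mouse, and vehicle MOV replicate 5 was the lowest of all. The log2 fold change was -0.82 ± 0.0733 (SE, adjusted p = 2.82e-07) with vehicle and -0.74 ± 0.0716 (SE, adjusted p = 6.95e-08) with D + Q, and it was called lower under every alternative run, at -0.44 and -0.38 under total counts. Rrm2 went the other way, by 2.90 ± 0.296 (SE, adjusted p = 1.02e-06) and 3.06 ± 0.349 (SE, adjusted p = 5.24e-07). Per kilobase, Rrm1 was 4.3 ± 0.345 and Rrm2 0.181 ± 0.0843 CPM in vehicle sham (mean ± SD, n = 5), and they were 2.43 ± 0.15 and 1.36 ± 0.225 CPM in vehicle MOV.

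Pcna, the sliding clamp of the replication fork, was 21.6, 19, 17.7, 16.8 and 18 CPM in vehicle sham and 23.4, 23.8, 26.9, 29.7 and 28.1 CPM in vehicle MOV. It was 17.4, 20.3, 18.2, 20.4 and 18.4 CPM in D + Q sham and 24.6, 22.8, 27.2, 26.2 and 29.5 CPM in D + Q MOV. MOV and sham did not overlap, but the rise was small beside that of Mki67: 0.51 ± 0.0913 (SE, adjusted p = 0.00021) with vehicle and 0.50 ± 0.0783 (SE, adjusted p = 2.19e-05) with D + Q. Tyms, thymidylate synthase, rose by 1.03 ± 0.25 and 0.58 ± 0.177 (SE), with vehicle MOV replicate 2 inside the vehicle sham range. Hells, a chromatin remodeler of the SNF2 family, rose by 2.51 and 1.90, with overlap of the D + Q groups. Tk1, the thymidine kinase of S phase, was 11.3 to 11.7 CPM in vehicle sham and 7.71 to 11.1 CPM in vehicle MOV without overlap, and 10 to 11.3 and 7.52 to 10.6 CPM with D + Q. It fell by little with vehicle, -0.27 ± 0.11 (SE, adjusted p = 0.0446), a call that most alternatives lost, and differed by -0.15 ± 0.103 (SE, adjusted p = 0.221) with D + Q, and under total counts these turned to 0.10 and 0.22, neither called. 9.45% of its exon bases overlap Syngr2 on the opposite strand, which fell too (-0.70 with vehicle and -0.55 with D + Q).

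Both transcription factors rose. E2f1, an activator of replication genes, was 0.138, 1.04, 0.829, 0.81 and 1.35 CPM in vehicle sham and 1.89, 3.05, 4.02, 4.55 and 2.75 CPM in vehicle MOV. It was 0.576, 0.853, 0.536, 0.679 and 0.711 CPM in D + Q sham and 3.69, 3.03, 4.58, 3.81 and 4.38 CPM in D + Q MOV. The groups did not overlap, the gap between vehicle sham replicate 5 and vehicle MOV replicate 1 being the narrowest. Its log2 fold change was 1.99 ± 0.398 (SE, adjusted p = 0.000571) and 2.57 ± 0.215 (SE, adjusted p = 1.12e-08). Foxm1, an activator of G2 and mitosis genes, was 0.184, 0.173, 0.255, 0.0579 and 0.294 CPM in vehicle sham and 3.06, 1.24, 2.53, 2.63 and 3.47 CPM in vehicle MOV. It was 0.157, 0.366, 0.244, 0.388 and 0.254 CPM in D + Q sham and 1.02, 2.07, 2.55, 2.02 and 3.23 CPM in D + Q MOV. All MOV mice were above all sham mice, the lowest being D + Q MOV replicate 1 and vehicle MOV replicate 2, and the log2 fold change was 3.73 ± 0.388 (SE, adjusted p = 1.21e-06) and 2.96 ± 0.362 (SE, adjusted p = 1.19e-06).

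Of the 8 mitotic kinase, checkpoint and anaphase genes, 6 were tested with each treatment; 5 rose and Aurka fell. Aurora kinase A, encoded by Aurka, acts at the centrosomes and spindle poles. It was 9.83, 10.6, 7.97, 9.49 and 8.46 CPM in vehicle sham and 4.31, 3.42, 4.3, 5.08 and 3.56 CPM in vehicle MOV. It was 7.22, 11.3, 8.43, 5.97 and 8.99 CPM in D + Q sham and 4.12, 4.34, 5.83, 6.05 and 5.8 CPM in D + Q MOV. The vehicle groups did not overlap, while D + Q sham replicate 4 lay just under D + Q MOV replicate 4. The difference was -1.16 ± 0.14 (SE, adjusted p = 5.18e-06) with vehicle and -0.64 ± 0.166 (SE, adjusted p = 0.00241) with D + Q, and total counts kept the call with vehicle only. Its overlapping neighbour Fam210b did not pass with either treatment (-0.18, adjusted p = 0.266, and -0.10, adjusted p = 0.364). Cstf1, which overlaps 7.5% of the exon bases of Aurka on the opposite strand, did not pass with vehicle (-0.06, adjusted p = 0.542) and fell with D + Q (-0.42, adjusted p = 0.000143).

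Aurora kinase B and survivin, encoded by Aurkb and Birc5, belong to the chromosomal passenger complex and rose where Aurka fell. Aurkb had counts in 1 of 5 vehicle sham mice; summed counts were 151 in vehicle MOV and 2 in vehicle sham, a ratio of 60.1 (16.4 to 501), or at least 26.5-fold without vehicle sham replicate 3, and 135 and 6 with D + Q, a ratio of 18.1 (8.11 to 50.3). Birc5 rose by 4.34 ± 0.579, or 6.15 without vehicle sham replicate 4, and 3.80 ± 0.402 (SE). Bub1b, the BubR1 checkpoint protein, was 0.735, 0.403, 0.51, 1.22 and 0.587 CPM in vehicle sham and 3.14, 1.6, 1.97, 2.5 and 3.01 CPM in vehicle MOV. It was 0.576, 0.427, 0.536, 1.31 and 0.406 CPM in D + Q sham and 1.81, 1.96, 3.02, 1.66 and 1.46 CPM in D + Q MOV. No MOV mouse reached down to the sham range, and the log2 fold change was 1.82 ± 0.315 (SE, adjusted p = 0.000147) and 1.62 ± 0.333 (SE, adjusted p = 0.000346). Plk1, polo-like kinase 1, rose by 2.82 and 2.45, and Cdc20, which activates the anaphase-promoting complex, by 4.03 and 2.98.

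2 checkpoint kinases, Bub1 and Ttk, were untested with both treatments because fewer than 5 mice reached 10 counts. Bub1 had 0 counts in all vehicle sham mice and 72 counts summed in vehicle MOV, at least 15.1-fold higher by the 95% counting limit (19.1-fold with 3 counts put in for the sham group). With D + Q its sums were 97 in MOV and 3 in sham, a ratio of 26 (8.65 to 129). Vehicle MOV replicate 2 was at 0.0518 CPM and the other vehicle MOV mice at 0.515 to 0.927 CPM. Ttk had 0 counts in all D + Q sham mice and 52 in D + Q MOV, at least 11-fold higher by the same limit (14-fold with 3 counts put in for the sham group). Its vehicle values were 0 to 0.184 CPM in sham and 0.374 to 0.762 CPM in MOV.

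All spindle motor, kinetochore and midzone genes that were tested rose, 7 of 7 with vehicle and 8 of 8 with D + Q. Of all genes tested, 30.7% and 34.4% rose. Not all of these genes met the count minimum in both groups, so the counts are a description. Tpx2, which activates Aurora kinase A at the spindle, was 2.48, 1.32, 2.49, 2.84 and 2.94 CPM in vehicle sham and 5.6, 2.43, 4.21, 6.04 and 4.7 CPM in vehicle MOV. It was 2.25, 2.5, 4.34, 1.75 and 3.5 CPM in D + Q sham and 4.05, 4.34, 5.53, 3.68 and 4.56 CPM in D + Q MOV. The groups overlapped with both treatments, through vehicle MOV replicate 2 and D + Q sham replicate 3, and the rise was 0.94 ± 0.256 (SE, adjusted p = 0.0051) and 0.66 ± 0.215 (SE, adjusted p = 0.0117), so Tpx2 rose while its kinase Aurka fell. Prc1, which bundles the microtubules of the midzone, was 0.459, 1.32, 0.382, 0.753 and 0.47 CPM in vehicle sham and 4.23, 2.17, 4.87, 6.52 and 4.7 CPM in vehicle MOV. It was 0.942, 0.914, 0.78, 0.679 and 0.559 CPM in D + Q sham and 4.52, 3.22, 4.62, 4.35 and 5.13 CPM in D + Q MOV. MOV and sham did not overlap, and the log2 fold change was 2.74 ± 0.352 (SE, adjusted p = 1.01e-05) and 2.53 ± 0.211 (SE, adjusted p = 1.12e-08).

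Among the motors, Kif11, which slides spindle microtubules apart, rose by 3.15 and 3.15, Kif23 of the centralspindlin complex by 2.68 (3.27 without vehicle sham replicate 2) and 3.04, and Kif20a of cytokinesis by 2.62 and 2.15. Cenpe, a kinetochore motor, summed to 174 counts in vehicle MOV and 1 in vehicle sham, a ratio of 139 (24.5 to 5503), or at least 29.9-fold without vehicle sham replicate 2; against D + Q sham, which was above the floor, its log2 fold change was 3.30 ± 0.526 (SE, adjusted p = 2.66e-05), or 4.13 without D + Q sham replicate 2. Cenpf, a kinetochore protein, was untested with vehicle, at 0 to 0.345 CPM in sham and 0.466 to 2.85 CPM in MOV, and summed to 212 and 8 counts in D + Q MOV and D + Q sham, a ratio of 21.3 (10.6 to 50.1). Nusap1, a spindle microtubule protein, rose by 1.23 and 0.87, and its D + Q groups overlapped.

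D + Q was compared with vehicle within MOV muscle to ask whether the senolytic pair changed the overloaded muscle. All 42 genes were tested, 38 of them with the minimum met in every mouse of both groups. In edgeR 0 of 42 passed an adjusted p of 0.05, beside 0% of the 15238 genes tested. DESeq2 called 11 genes and limma-voom 0, neither any of the 42. At an unadjusted p of 0.05 edgeR had 2 of the 42, Mcm6 and Mcm7, beside 8.79% of all genes (1340), DESeq2 had 2 and limma-voom 4. Without vehicle MOV replicate 4 edgeR had 3 of the 42, beside 17.4% of all genes (2634), and without D + Q MOV replicate 3 it had 4, beside 6.36%. All 42 genes overlapped between D + Q MOV and vehicle MOV, and 1.44% of all genes tested did not. The median log2 fold change over the 42 genes was -0.08, with 31 negative and 11 positive, and over all genes it was 0.00; Cdt1, Cdc45, Mcm2, Pcna and Nusap1 changed sign under total counts, giving 26 and 16. These signs depended on single mice: 24 were negative and 18 positive without vehicle MOV replicate 4, 36 and 6 without vehicle MOV replicate 2 (median -0.23), and 35 and 7 without D + Q MOV replicate 3.

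Ranked by unadjusted p, the genes furthest toward lower were Mcm6 (-0.35, adjusted p = 0.523), Mcm7 (-0.26, adjusted p = 0.547) and Rrm2 (-0.41, adjusted p = 0.59). Those furthest toward higher were Aurka (0.32, adjusted p = 0.572), Ccne1 (0.44, adjusted p = 0.685) and E2f1 (0.25, adjusted p = 0.736). Mcm6 was 9.83, 11.5, 10.1, 13.1 and 14.7 CPM in vehicle MOV and 8.99, 8.52, 9.33, 10.3 and 9.87 CPM in D + Q MOV. The mice with D + Q lay toward the lower end, with vehicle MOV replicates 1 and 3 among them. For Mki67 the 95% interval of the log2 difference was -0.655 to 0.119, and for Top2a it was -0.406 to 0.475. Vehicle MOV replicate 2 bears on this comparison: without it Top2a turned from 0.03 to -0.13, Gins2, Mcm3, Kif11 and Kif23 also turned negative. Then 7 of the 42 genes in place of 2 had an unadjusted p under 0.05 in edgeR, with 0 adjusted, beside 960 of all 15500 genes tested with the minimum asked of 4 mice.

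**Figure D5:**
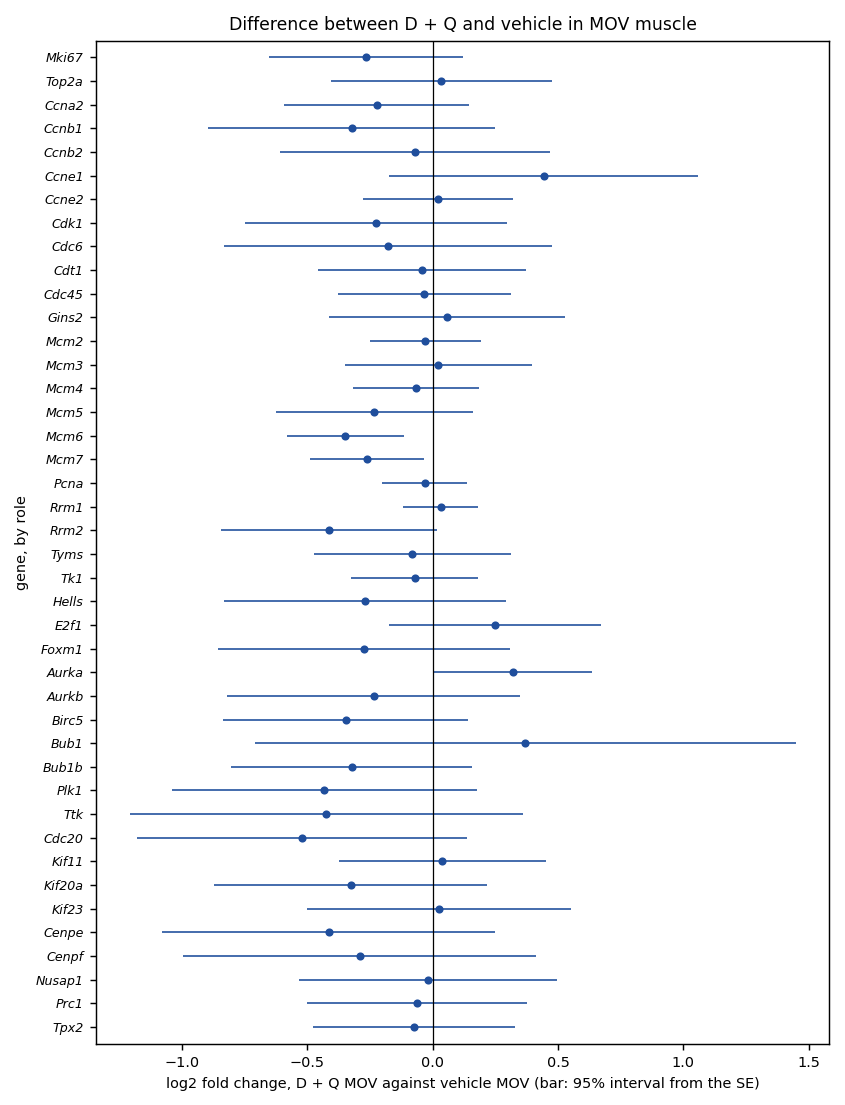
Log2 fold change (horizontal, bar = 95% interval from the SE, 5 mice a group) between D + Q MOV and vehicle MOV for the 42 genes (vertical, by role), under TMM scaling. 31 points lie left of 0 and 11 right of it (24 and 18 without vehicle MOV replicate 4, 36 and 6 without vehicle MOV replicate 2, 35 and 7 without D + Q MOV replicate 3, and 26 and 16 under total counts), and 0 passed an adjusted p of 0.05 in edgeR.

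In sham muscle, 20 of the 42 genes were tested between D + Q and vehicle, 14 of them with the minimum met in both groups. In edgeR 0 passed an adjusted p of 0.05, beside 0.215% of the 13926 genes tested (30, and 2 to 74 with a mouse left out), and 0 of the 20 had an unadjusted p under 0.05 (0 to 2 with a mouse left out), beside 10.2%; DESeq2 and limma-voom also called 0 of them, with 0 and 1 at an unadjusted p under 0.05. The gene with the lowest p was Mcm2 (-0.24, adjusted p = 0.502). All 42 genes overlapped between D + Q sham and vehicle sham, and 2.05% of all genes tested did not.

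Whether the response to MOV differed with D + Q was tested as an interaction over all 20 mice. 0 of the 42 genes passed an adjusted p of 0.05 in edgeR, beside 0.0127% of 15700 genes, and 3 had an unadjusted p under 0.05 (1 to 5 with a mouse left out), beside 5.71%. DESeq2 and limma-voom also called 0 of them, with 3 and 2 at an unadjusted p under 0.05. The 3 in edgeR were Mcm5 (interaction -0.84, adjusted p = 0.855), Aurka (0.48, adjusted p = 0.855) and Cenpe (adjusted p = 0.791), whose vehicle sham group was at the floor. Thus the differences seen between the 2 responses, among them the smaller fall of Aurka with D + Q, were not called.

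Other genes of the same pathways, 135 in 7 lists, moved in both directions under TMM. With vehicle 67 of 117 tested rose and 19 fell, and with D + Q 70 of 122 rose and 20 fell, the median log2 fold change being 0.77 and 0.85. Of all genes tested 30.7% and 34.4% rose and 29.8% and 30.9% fell. Not all of the pathway genes met the count minimum in both groups, so the counts are a description. With vehicle 83 genes met it in every mouse of both groups, of which 34 rose and 19 fell, and with D + Q 82 did, of which 33 rose and 20 fell. These stand beside 27.4% and 33.8%, and 31.4% and 35.2%, of all genes at that minimum. Of 8 tested G1 cyclin, CDK and CDC25 genes 7 rose with each treatment, led by the D cyclins Ccnd1 (2.18 ± 0.294, SE) and Ccnd2 (1.98 ± 0.138) with vehicle. The E2F, pocket protein and MuvB genes had shares near those of all genes, 6 higher and 5 lower of 16 with vehicle and 5 and 5 with D + Q (3 and 5, and 2 and 5, of 13 at the minimum in both groups, and 10 and 4, and 11 and 4, of 16 under total counts). In that list the repressors E2f8 (3.14) and E2f7 (2.78) rose, and the MuvB subunit Lin9 (-0.99) and the E2F partner Tfdp2 (-0.75) fell, also under total counts (-0.615 and -0.38). Of the CDK inhibitors, 4 of 6 rose with vehicle, and 5 of 7 rose and 1 fell with D + Q (0 fell under total counts), with Cdkn1a (1.73 ± 0.121) and Cdkn1c (1.54 ± 0.12) the highest with vehicle.

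Of 38 tested origin, firing and polymerase genes 15 rose and 9 fell with vehicle, and 12 and 8 of 37 with D + Q (7 and 9 of 30, and 8 and 8 of 31, at the minimum in both groups). Under total counts 23 rose and 0 fell with vehicle and 24 and 1 with D + Q. The checkpoint mediator Clspn (3.78, or 4.83 without vehicle sham replicate 3) and the origin-firing kinase Cdc7 (2.67, or 3.34 without vehicle sham replicate 4) rose, and the origin subunit Orc3 (-0.55) and Mcm8 (-0.53) fell, neither of them under total counts. Mcm8 lost its call in 5 of 10 fits that left out a mouse. Among other nucleotide supply and fork chromatin genes 6 of 10 rose and 1 fell with vehicle, and 7 of 11 and 2 with D + Q (4 and 1, and 4 and 2, of 8 at the minimum in both groups, and 7 and 1, and 8 and 1, under total counts). Uhrf1 (3.93) and Asf1b (1.88), which act on newly made chromatin, rose, and Rrm2b, the alternative small subunit of ribonucleotide reductase used outside S phase, fell (-0.84 ± 0.115, SE, and -0.46 under total counts). Rrm1 and Rrm2b thus fell with vehicle while Rrm2 rose. Of the kinetochore, cohesin and condensin genes 9 of 18 rose and 4 fell with vehicle, and 14 of 22 and 3 with D + Q (5 and 4 of 13, and 5 and 3 of 12, at the minimum in both groups, or 6 and 1, and 6 and 2, in fits of such genes alone), with Cdca8 (2.89) and Ndc80 (2.86) up and Pttg1 (-0.60) and Rad21 (-0.20) down. Under total counts 15 of the 18 rose and 0 fell with vehicle and 19 of the 22 rose and 1 fell with D + Q, Pttg1 was not called and Rad21 turned to a rise (0.18, adjusted p = 0.0331). Rad21 also lost its call without vehicle MOV replicate 3 (-0.17) and in the fit of genes at the minimum in both groups (-0.15, adjusted p = 0.0515). Of the mitotic motor, spindle and cytokinesis genes 20 of 21 rose with vehicle, and 20 of 21 rose and 1 fell with D + Q (0 fell under total counts). Only 6 of them met the minimum in both groups with vehicle, of which 5 rose and 0 fell, and 5 with D + Q, of which 4 rose and 1 fell. Melk, a kinase of dividing cells, had 1 count over the vehicle sham mice, and the ratio of vehicle MOV to vehicle sham was 82 (14.4 to 3270), or at least 17.7-fold without vehicle sham replicate 5, which held that count. Dlgap5, a spindle protein, summed to 126 and 2 counts, a ratio of 50.2 (13.6 to 419), or 80.8 and 82.7 without vehicle sham replicate 2 or 3.

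Markers of several cell types that the muscle could hold moved with surgery beside the cell cycle genes. Of all genes tested, 30.7% rose and 29.8% fell with vehicle, and 34.4% rose and 30.9% fell with D + Q. Of 12 macrophage and monocyte markers 11 rose with vehicle and 12 with D + Q, and their summed level was 109 ± 39.5 CPM in vehicle sham, 121 ± 37.6 in D + Q sham, 631 ± 230 in vehicle MOV and 756 ± 54.2 in D + Q MOV (mean ± SD, n = 5), with Lyz2 the most abundant. Of 12 fibroblast markers 11 rose with each treatment, the sums being 1246 ± 203, 1680 ± 351, 11505 ± 2618 and 15281 ± 2007 CPM in the same order, with Col3a1 the most abundant. Of 12 myofibre markers, led by Myh4, 8 fell and 1 rose with vehicle and 9 fell and 1 rose with D + Q (7 fell and 4 rose, and 8 and 3, under total counts), and the sums were 202274 ± 9571, 210400 ± 7096, 128731 ± 15178 and 122352 ± 12402 CPM. Of the satellite cell and myoblast markers 7 of 9 tested rose with vehicle, and 7 of 10 rose and 1 fell with D + Q (0 fell under total counts), with sums of 180 ± 14.3, 168 ± 6.06, 287 ± 52.3 and 233 ± 16.1 CPM and Itga7 the most abundant. A summed level, here and below, follows the most abundant genes of its list and is no count of cells. The part of these cell types in the levels of the cell cycle genes was not tested.

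Of 12 endothelial markers 9 rose with vehicle, and 9 rose and 1 fell with D + Q (11 and 0 with each under total counts), with Pecam1 the most abundant and sums of 255 ± 27.6, 281 ± 38, 376 ± 29.1 and 367 ± 38.2 CPM. Of 10 pericyte and smooth muscle markers 6 rose and 1 fell with vehicle and 5 and 2 with D + Q (9 and 1, and 7 and 1, under total counts), with sums of 4518 ± 202, 4577 ± 239, 5668 ± 1037 and 4813 ± 359 CPM. Des, which myofibres express too, made up most of these sums, at 3845 ± 194, 3862 ± 266, 4996 ± 1042 and 4121 ± 325 CPM, so they are no measure of pericytes and smooth muscle alone. Among Schwann cell markers 2 of 8 rose with vehicle, and 3 rose and 1 fell with D + Q (6 and 0, and 5 and 0, under total counts), with Pmp22 the most abundant and sums of 49.3 ± 11.7, 57.9 ± 6.39, 76.5 ± 24.8 and 82.9 ± 14.4 CPM. These rises were near the shares of all genes. At the minimum in both groups, 1 of 6 Schwann cell markers rose with vehicle and 2 of 6 with D + Q. T, B and NK cell markers were low: of 12, 3 were tested with vehicle and 2 rose, and 4 were tested with D + Q and 3 rose, with Ptprc the most abundant and sums of 5 ± 1.87, 5.02 ± 1.27, 18.6 ± 6.42 and 20.4 ± 3.61 CPM. Neutrophil markers were lower still, with 2 of 3 tested rising with vehicle and 1 of 2 with D + Q, Csf3r the most abundant, and sums of 1.49 ± 0.733, 2.17 ± 1.34, 5.17 ± 1.74 and 3.85 ± 1.03 CPM. Of the erythroid markers 5 were tested and 0 passed with either treatment in edgeR, DESeq2 or limma-voom, 0 of them in edgeR at an unadjusted p under 0.05, and they summed to 547 ± 295, 394 ± 128, 433 ± 339 and 360 ± 64.3 CPM, with Hbb-bs the most abundant. With either treatment 2 of the T, B and NK cell markers and 0 of the neutrophil markers met the minimum in both groups. No listed marker that was analysed was at 3 counts or fewer in every mouse.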

How the data were processed

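Gene counts of 20 plantaris libraries, 5 mice in each of 4 groups, were analysed. Per the labels and the paper's methods, the authors aligned reads with STAR 2.7.8a to GRCm39, quantified genes by expectation maximization in Partek Flow and deposited the estimated counts without normalization. 20.8% of the values were not whole (by more than 0.01), including values of 9 of the 42 genes, and all were rounded. No column was left unused.

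MOV was compared with sham within each treatment, and D + Q with vehicle within each surgery, in separate fits of 10 mice, while the interaction used all 20. Genes with 10 or more counts in 5 or more mice of a fit were tested in edgeR 4.0.16 (R 4.3.3) by quasi-likelihood with robust estimation and TMM scaling, with Benjamini-Hochberg adjustment over all genes tested and a threshold of 0.05. All p values are from edgeR unless DESeq2 1.42.0 or limma 3.58.1 (voom) is named. CPM used TMM factors over the 20 mice. The smallest ratio of observed to counting variance between libraries of a group was 7.13, so each counted as 1 mouse. The test was tested on simulated data for MOV against sham with vehicle. There edgeR recovered fewer of the changed genes than a limit first set, which was then dropped. DESeq2 made more false calls than its adjusted threshold allows. Recovery was not measured for the comparisons of D + Q with vehicle.

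All 42 genes were accounted for by role. Values in every mouse were printed for Mki67, Top2a and the 2 genes with the highest mean CPM of each other role, and further genes were named as extremes of their role, as untested, or as the 3 with the lowest p each way between D + Q and vehicle in MOV. Of each pathway list, the 2 largest rises and falls at an adjusted p under 0.05 with vehicle were named. Mcm5, Cenpe, Cdc6, Cdc45, Tk1, Gins2 and other genes given beside these, such as overlapping genes, were picked with their values in view. The members and lists were chosen with earlier results of these data known. Alternatives were DESeq2, RLE factors, total counts, no filter, a filter in each group, limma-voom, a joint fit of the 20 mice, the replicate number as a block, each mouse left out, transcript length and promoter window. Lin54, Ly6g, Mpo and Elane, which were listed, were not analysed here.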

Additional observations from a re-analysis of the deposited data

Results flagged for a closer look

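A mouse was singled out when its gap to the nearest other mouse of its group exceeded 0.71 of the range of the 5 mice (Dixon's test). Of 158 combinations of gene and group tested, 14 did so. The rate by chance of about 1 in 20 holds for independent, normally spread values. Low counts of genes measured in the same mice are not such values, so the rate is only a rough guide. Vehicle MOV replicate 2 was low for Cdk1 (2.12 CPM, nearest 2.92), Tyms (1.92 CPM, nearest 3.39) and Plk1 (0.725 CPM, nearest 1.64). D + Q sham replicate 2 was high for Mki67 (1.22 CPM, nearest 0.209), Nusap1 (2.07 CPM, nearest 1.05) and Ccne1 (0.488 CPM, nearest 0.209). D + Q sham replicate 4 was high for Gins2 (2.28 CPM, nearest 1.42) and Bub1b (1.31 CPM, nearest 0.576).

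In vehicle sham, replicate 4 was high for Tyms (2.55 CPM, nearest 1.52) and Birc5 (0.463 CPM, nearest 0.0637), replicate 3 was high for Ccne1 (0.51 CPM, nearest 0.184), and replicate 2 was low for Tpx2 (1.32 CPM, nearest 2.48). Vehicle MOV replicate 5 was low for Rrm1 (25.5 CPM, nearest 28.9), on the side of the fall of that gene, and D + Q MOV replicate 3 was high for Cdt1 (2.12 CPM, nearest 1.61). Several of the sham values rest on few counts.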

How the results depend on the processing

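With total counts alone, 2 genes fell with vehicle (main 4) and 1 with D + Q (main 3); Tk1 turned to 0.10 and Rad21 to 0.18 with vehicle, and Mcm2 turned to 0.14, Mcm7 to 0.34 and Tk1 to 0.22 with D + Q. With the minimum asked of every mouse of both groups, 7 genes rose with vehicle (main 31) and 10 with D + Q (main 33), because fewer genes were tested, and Mcm7 turned to 0.0247 with D + Q. Between D + Q and vehicle, DESeq2 called 11 genes in MOV (main 0) and 133 in sham (main 30), where total counts called 49 and no filter 67. With limma-voom, Top2a turned to -0.0849 in MOV and Mcm7 to -0.0244 in sham. Without vehicle MOV replicate 2, with the minimum asked of 4 mice, Top2a was -0.13 in MOV, and Gins2, Mcm3, Kif11 and Kif23 also turned negative. Apart from the construction of the filters, the cause of these changes was not tested.

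The replicate numbers were given no meaning in the labels, and deviations of same-numbered mice correlated between -0.25 and 0.253. The numbers were not taken to pair the mice, although these correlations cannot exclude a shared batch. With the replicate block, 2 genes were called between D + Q and vehicle in MOV, 19 in sham and 1 in the interaction (main 2), none of them among the 42; with vehicle 32 of the 42 rose and 3 fell, Tk1 being lost and Cdc6 gained, and with D + Q the counts were 33 and 3.

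Leaving out 1 mouse at a time, 19 to 31 of the 42 genes rose and 3 to 4 fell with vehicle (7929 to 8504 genes in all), and 21 to 33 rose and 3 to 4 fell with D + Q (8850 to 9450). The lower ends came from leaving out an MOV mouse, when the minimum in 5 mice let 26 to 28 of the 42 genes through. Between D + Q and vehicle 0 of the 42 were called in any of these fits (0 to 2 genes in MOV, 2 to 74 in sham, 2 to 3 in the interaction). Mcm7 ranged from -0.0875 to 0.0258 for MOV against sham with D + Q and from -0.056 to 0.0384 for D + Q in sham, and Top2a from -0.128 to 0.122 for D + Q in MOV. Tk1 lost its call with vehicle in 8 of 10 such fits and with DESeq2, RLE factors, no filter, the filter in each group and limma-voom. Cdc6 with vehicle was called with DESeq2, total counts, limma-voom and all 20 mice in one fit, and Mcm2 with D + Q with DESeq2, RLE factors, limma-voom and all 20 mice in one fit.

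Depth limits the genes near 0 in sham, whose ratios carry wide counting intervals. In windows of 150 bases, 47.1% of the 34 genes had a CHR, beside 9.87% of all, 20.6% an E2F motif, beside 6.49%, and 64.7% a CCAAT box, beside 26.3%.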
